A study of Homo sapiens with 2 samples.

Results

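CpG-poor open sites at the ends of protein-coding genes were examined in undifferentiated H9 cells, which are human embryonic stem cells in long-term culture. These are autosomal peaks of accessible chromatin whose summit lay within 500 bp of either end of a RefSeq protein-coding gene and that held fewer than 3 CpGs per 100 bp. Each also had to carry at least 10 CpG reads in each replicate. The rule was met by 530 of the 40703 autosomal peaks with that many reads, or 1.30%. Before the read minimum 588 peaks met it, of which 20 held no CpG and 38 had too few reads. Strand was known for 408 of the sites: 254 lay at a gene start and 154 at a gene 3′ end, with the 6 near both counted as starts. The remaining 122 lay at genes whose strand was not in the table used here. They include all 19 sites on chromosome 8, for which that table held no gene. Results on starts, 3′ ends and promoters therefore leave chromosome 8 out. The rule uses no methylation value.

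ATAC-Me is an ATAC assay read after cytosine conversion: a transposase cuts and tags accessible DNA, and the converted letters of each fragment tell which of its CpGs were methylated. The study holds 1 group, H9 pluripotent stem cells grown on Matrigel in mTeSR medium with no treatment, and 2 replicates. The labels do not say whether these were separate cultures, and their spread may be only technical. Autosomal CpG reads totalled 28475863 in replicate 1 and 51406146 in replicate 2, which covered 31.6% and 59.0% of 27852739 CpGs. The CpG-poor sites held 10 to 412 reads in replicate 1 (median 50) and 10 to 682 in replicate 2 (median 66). As a check of the label, an open peak lay at an end of 9 of 11 pluripotency markers, all except DPPA4 and POU5F1, and at 0 of 4 blood markers. Peaks also lay at 3 of 5 neural progenitor markers, 1 of 6 fibroblast and 1 of 4 liver markers. Of all autosomal protein-coding genes, 56.2% had a peak at an end, and in a longer list of 37 pluripotency genes 21 did. The short marker lists are thus only a weak check.

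Most human promoters lie in CpG islands, dense runs of CpG that stay unmethylated in nearly all cells whether or not the gene is active. CpG-poor promoters are the minority: they often serve tissue-restricted genes, and their methylation varies between cell types and tends to be low where the gene is active. A gene's 3′ end, in contrast, lies in DNA that is usually methylated, and open chromatin there can mark an enhancer or a neighbouring unit. Transcription factors that bind such DNA can leave local dips of methylation.

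The promoters of 8 named gene start sites are given first, since they show how few CpGs lie just before each start. The methylation of a site is taken over its whole peak, which can hold more or fewer CpGs than are printed. The TREX1 peak holds 20 CpGs against 3 printed, and the NANOG peak 2 against 4. Each line holds the 250 bases before the gene start, 5′ to 3′ on the strand of the gene, from RefSeq (assembly GRCh38.p14), with every CpG in capitals. NANOG (chr12:7789152-7789401, plus strand), CRIPTO (chr3:46574285-46574534, plus strand) and ZSCAN10 (chr16:3099295-3099544, minus strand) are pluripotency genes. GOLPH3L (chr1:150697155-150697404, minus strand) and SLC2A12 (chr6:134052625-134052874, minus strand) carried no methylated read. ELF3 (chr1:202010337-202010586, plus strand) was nearly free of methylation, while TREX1 (chr3:48465580-48465829, plus strand) and PTAFR (chr1:28193857-28194106, minus strand) were partly methylated.
NANOG: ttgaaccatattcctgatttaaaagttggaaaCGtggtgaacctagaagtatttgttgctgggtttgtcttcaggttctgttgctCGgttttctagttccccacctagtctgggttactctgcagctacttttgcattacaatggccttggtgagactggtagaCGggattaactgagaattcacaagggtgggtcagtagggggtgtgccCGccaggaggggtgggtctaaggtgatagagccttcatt
CRIPTO: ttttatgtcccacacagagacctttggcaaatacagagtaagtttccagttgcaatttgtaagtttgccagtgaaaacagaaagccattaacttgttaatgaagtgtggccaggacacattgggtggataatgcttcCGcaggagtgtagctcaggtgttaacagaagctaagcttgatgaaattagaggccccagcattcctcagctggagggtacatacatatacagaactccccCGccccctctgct
ZSCAN10: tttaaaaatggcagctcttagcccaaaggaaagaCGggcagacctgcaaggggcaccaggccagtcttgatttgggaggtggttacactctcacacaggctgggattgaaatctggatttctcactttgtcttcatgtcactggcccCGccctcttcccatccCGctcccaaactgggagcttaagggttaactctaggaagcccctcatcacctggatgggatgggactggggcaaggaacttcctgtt
GOLPH3L: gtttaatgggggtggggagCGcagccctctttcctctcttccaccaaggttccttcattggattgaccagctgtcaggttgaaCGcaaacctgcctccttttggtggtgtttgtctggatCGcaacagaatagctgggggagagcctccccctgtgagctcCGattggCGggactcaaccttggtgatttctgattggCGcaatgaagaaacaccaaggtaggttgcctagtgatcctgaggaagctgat
SLC2A12: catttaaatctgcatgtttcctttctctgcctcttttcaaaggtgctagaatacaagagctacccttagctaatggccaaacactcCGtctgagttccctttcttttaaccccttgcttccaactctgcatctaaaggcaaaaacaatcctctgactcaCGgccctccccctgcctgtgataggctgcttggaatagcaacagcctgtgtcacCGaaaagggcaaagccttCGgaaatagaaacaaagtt
ELF3: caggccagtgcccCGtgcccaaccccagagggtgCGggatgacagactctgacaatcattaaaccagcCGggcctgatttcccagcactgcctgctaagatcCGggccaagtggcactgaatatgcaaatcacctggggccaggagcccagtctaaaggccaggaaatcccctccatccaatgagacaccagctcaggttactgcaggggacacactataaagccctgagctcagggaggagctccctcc
TREX1: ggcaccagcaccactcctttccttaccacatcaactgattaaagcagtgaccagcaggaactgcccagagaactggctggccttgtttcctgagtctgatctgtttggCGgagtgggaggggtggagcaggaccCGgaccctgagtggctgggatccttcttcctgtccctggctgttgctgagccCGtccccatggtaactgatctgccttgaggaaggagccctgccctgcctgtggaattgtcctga
PTAFR: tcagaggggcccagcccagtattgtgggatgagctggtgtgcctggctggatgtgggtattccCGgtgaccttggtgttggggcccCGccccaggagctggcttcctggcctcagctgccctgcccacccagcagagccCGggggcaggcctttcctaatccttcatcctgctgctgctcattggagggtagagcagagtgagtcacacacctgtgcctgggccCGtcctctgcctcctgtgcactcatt

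NANOG, a homeobox factor that maintains pluripotency, has 4 CpGs in these 250 bases, and all of their 38 and 35 reads in the replicates were unmethylated. CRIPTO, a co-receptor for NODAL, has 2 CpGs, with 0 of 27 and 0 of 35 reads methylated. ZSCAN10, a zinc finger factor of stem cells, has 3 CpGs with 0 of 29 and 0 of 41. GOLPH3L, a relative of the Golgi protein GOLPH3, has 6 CpGs and 0 methylated of 211 and 357 reads. SLC2A12, a sugar transporter, has 4 CpGs and 0 methylated of 113 and 71 reads. These 5 promoters showed no methylation at any of their CpGs, although CRIPTO, ZSCAN10 and NANOG rest on few reads. ELF3, an epithelial ETS factor, has 4 CpGs with 0 of 68 and 5 of 105 methylated reads. TREX1, a DNA exonuclease that limits innate immune signalling, has 3 CpGs with 23 of 97 and 24 of 185 methylated reads. PTAFR, the receptor for platelet-activating factor, has 4 CpGs with 26 of 51 and 29 of 65, and its CpG 164 bases before the start was the most methylated, at 13 of 15 and 9 of 12 reads.

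Motifs were found in these windows by exact match on either strand. ELF3 holds TATAAA, the TATA box, with its first base 34 bases before the start, and ATGCAAAT, the octamer bound by POU factors, 128 bases before it. GOLPH3L holds CCAAT, bound by NF-Y, 3 times, starting 194, 87 and 57 bases before the start. CRIPTO holds GGGCGG, the GC box bound by SP factors, 14 bases before the start and GGAATG, bound by TEAD factors, 54 bases before it. NANOG holds CATTGT, the SOX core, 112 bases before the start, within what is known as its OCT4-SOX2 element. PTAFR and SLC2A12 each hold TGAGTCA, the AP-1 site. A match describes the letters only.

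The question for these sites is how methylated open chromatin is where CpGs are sparse. The methylation of a site is the share of its CpG reads that are methylated, summed over its CpGs. The median CpG-poor site at a gene end was 11.1% methylated in each replicate (11.1% ± 0.0360, SD, n = 2, as are all SDs here), with quartiles of 2.89% and 28.7%. CpG-dense peaks at gene ends, with at least 3 CpGs per 100 bp, had medians of 0.399% and 1.31%. CpG-poor peaks over 1000 bp from any end of a protein-coding gene, called distal here, had 15.8% and 17.4%. Of these 18930 distal peaks, 47.2% lay inside a gene. The CpG-poor sites at gene ends were thus 10.2 ± 0.682 percentage points above the dense gene ends and 5.50 ± 1.17 points below the distal ones. Both differences exceeded the spread between replicates, which here and below does not measure the spread between sites. With 2 replicates an exact sign-flip test cannot give a p below 0.5, so no p is given. With at least 50 reads in each replicate, 231 sites were left and the gap to the dense ends was 6.17 points. It was 6.39 points where fewer than 4 CpGs per 100 bp were allowed.

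Under 20% methylation in both replicates were 302 of the 530 sites, or 57.0% (95% Wilson interval 52.7% to 61.1%, for counting error only), against 70.2% of all tested peaks, most of which are CpG-richer. Over 80% in both were 4 sites, or 0.755%, against 0.391% of all tested peaks. Between 40% and 60% in both were 24 sites (4.53%), against 3.68% of all tested peaks. No methylated read in either replicate was found at 24 sites, against 2.5% of tested peaks; these sites hold fewer reads than most peaks, so a count of 0 is easier to reach.

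Gene starts were less methylated than 3′ ends, both CpG-poor, with median densities of 2.01 and 1.68 CpGs per 100 bp. Sites at gene starts had medians of 6.47% and 6.06%, sites at 3′ ends 18.75% and 17.6%, and sites of unknown strand 14.7% and 13.7%. The difference between starts and 3′ ends was −11.9 ± 0.541 points, well beyond the spread between replicates. Under 20% in both replicates were 167 of the 254 starts (65.7%) and 71 of the 154 3′ ends (46.1%). Starts were the stronger peaks, with a median peak signal of 583 against 471 at 3′ ends (the authors' value, with no stated scale), and the wider ones, at 298 against 251.5 bp. With all tested peaks divided into 5 equal groups by signal, starts minus 3′ ends came to −16.4 points in the weakest group and −2.97 in the strongest, which holds 4 of the 3′ ends, and starts were lower in each of the 5. With summits within 250 bp of the gene end, the difference was −7.89 points.

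The starts also lay 10.3 ± 1.42 points below CpG-poor distal peaks, while the 3′ ends did not differ from these beyond the replicate spread (1.57 ± 1.96 points). The gap between starts and distal peaks was −16.8 points in the weakest of the 5 signal groups and −1.83 in the strongest. It came to −5.02 points among the more significant peaks, above the list's median, and to −5.17 points with at least 50 reads. Against CpG-dense gene ends the starts were higher by 5.41 ± 0.937 points. The box plot by class shows starts between dense ends and distal peaks, and 3′ ends level with distal peaks.

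**Figure D1:**
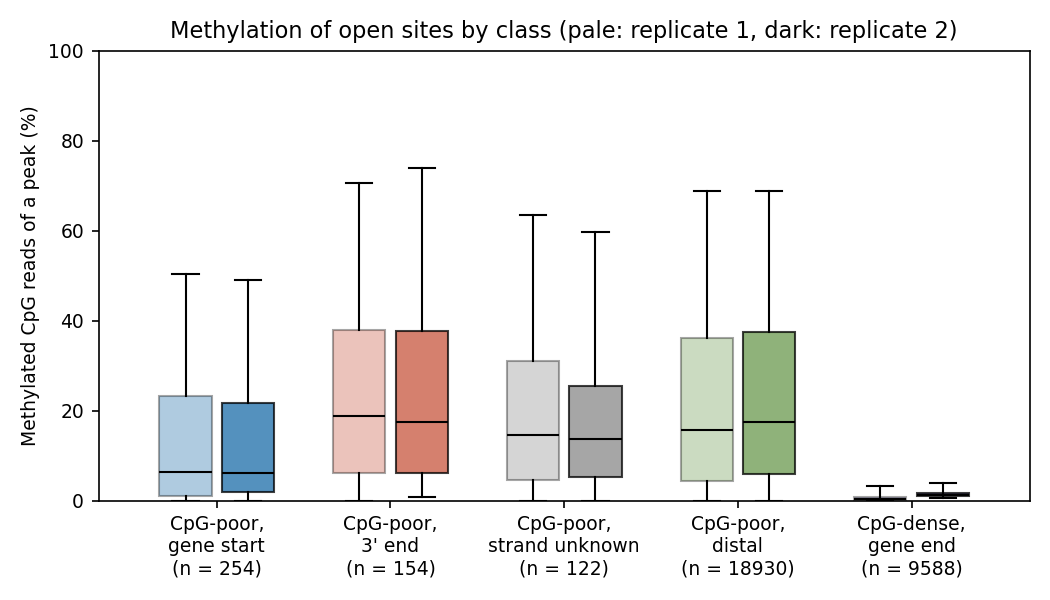
Methylated share of CpG reads per peak, in percent, for the 3 kinds of CpG-poor gene end site and for CpG-poor distal and CpG-dense gene end peaks. Pale boxes are replicate 1 and dark boxes replicate 2; boxes span the quartiles, lines mark medians and whiskers the 5th and 95th percentiles. Medians at gene starts are 6.47% and 6.06%, at 3′ ends 18.75% and 17.6%.

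Summits at gene starts lay close to the start, while those at 3′ ends were spread out around the end. The median start summit lay 55.5 bp before the gene start, 190 of 254 lay before it, and 147 (57.9%) were within 100 bp. CpG-dense starts were placed alike, with a median of 66 bp before the start and 56.0% within 100 bp. Of the 154 summits at 3′ ends, 10 (6.49%) lay within 100 bp of the end, 63 lay inside the gene and 91 beyond it, with a median of 134.5 bp past the end. Of these 154, 1 lay within 500 bp of a start in the promoter table, and of the 254 starts 215 did. Sites near both kinds of end were counted as starts, so the count among the 154 was low by construction. The outermost RefSeq end need not be the start in use: 74 of the start sites belong to a gene with another listed start over 1000 bp from the summit, and at 38 of these (51.4%) a CpG-dense peak lay at such a start.

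Nearness to CpG-dense open chromatin went with low methylation. A CpG-dense peak lay within 2000 bp of 49 starts (19.3%), of 15 sites at 3′ ends (9.74%) and 3.84% of distal peaks. Those 49 starts had a median of 3.003% ± 0.207 and the other 205 a median of 8.95% ± 0.878. The 15 sites at 3′ ends had 8.29% ± 0.846 and the other 139 had 18.7% ± 0.684. Both gaps exceeded the spread between replicates.

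The strongest gene start peaks were low in methylation, except TREX1. TOMM40L, a relative of the mitochondrial import pore, was at 3.98% and 4.55% (15 of 377 and 21 of 462 reads; chr1:161225473-161226296). ELF3 was at 3.28% and 5.95% (9 of 274 and 29 of 487; chr1:202010098-202010861). PES1, a ribosome assembly factor, was at 2.21% and 1.86% (chr22:30606432-30607308); its peak lies at the outermost RefSeq end, 14708 bp from the nearest start in the promoter table. GOLPH3L held 0 methylated of 289 and 486 reads (chr1:150697057-150697536), which allows a share of up to 0.387% over both replicates, taking 3 counts as the limit of a count of 0. In these 4 peaks both replicates were under 6%. TREX1 (chr3:48465383-48466247), whose peak had the highest signal of all start sites with 50 reads, was at 46.7% and 42.4% (92 of 197 and 157 of 370).

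At TREX1 the level was not even along the peak. Its 3 CpGs within 100 bp of the summit, those of the printed promoter, were 23.7% and 13.0% methylated, and its other 17 CpGs were 69.0% and 71.9% methylated. The value of 44.6% ± 3.02 for the whole peak thus averages a low centre and high edges.

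A lower centre was counted at other sites too. Among 106 starts with at least 10 reads in each replicate both near the summit and in the rest of the peak, the rest was higher in both replicates at 43 and lower in both at 11. The median difference was 1.76 ± 0.371 points. Among 42 3′ ends the rest was higher in both at 26 and lower in both at 6, with a median difference of 7.64 ± 3.21 points. For 4914 CpG-poor distal peaks the median difference was 4.64 ± 0.577 points and for 8990 CpG-dense gene ends 0.0945 ± 0.124 points, the last within the replicate spread. Reads per CpG were fewer away from the summit, and the part of fragments from closed chromatin in the rise was not tested.

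Of the 5 strongest peaks at 3′ ends, 4 were below the median of their kind. GLIPR2 (chr9:36163174-36163862), with its summit 470 bp inside the gene, was at 7.73% and 5.78% (18 of 233 and 17 of 294 reads). JAG1, a Notch ligand, held 1 of 97 and 4 of 73 methylated reads 75 bp inside its 3′ end (chr20:10637597-10637984). LRRK1, a kinase, held 1 of 130 and 6 of 107 (chr15:101077819-101078249). CALY (chr10:133324219-133324782), a neuronal vesicle protein, was at 10.2% in both replicates (26 of 256 and 38 of 374). SLC25A22 (chr11:790723-791148), a mitochondrial glutamate carrier, was at 34.0% and 39.1% (17 of 50 and 88 of 225). Of these 5, SLC25A22 alone exceeded the 3′ end median of 18.2% ± 0.832, with its summit 489 bp inside the gene and 874 bp from the listed start of CEND1.

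Some starts had low methylation on very few CpGs. Of starts under 20% in both replicates with at least 50 reads, those with fewest CpGs held 4 each. ATOSA (chr15:52709724-52710198) had 1 methylated of 93 and 1 of 96 reads. SLC2A12 (chr6:134052620-134052878) had 0 of 113 and 0 of 71, which allows up to 1.63% over both. ITGA4 (chr2:181456695-181456878), an integrin of white blood cells, had 6 of 91 and 4 of 50, or 7.30% ± 0.995. Its summit lay 429 bp before the outermost RefSeq end and 610 bp from the nearest start in the promoter table.

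Sites at 40% to 60% in both replicates were 7 at starts (2.76%), 10 at 3′ ends (6.49%) and 7 of unknown strand (5.74%). In this range lay 6.49% of CpG-poor distal peaks and 3.68% of all tested peaks. Of the sites in this range with 50 reads, TREX1, PTAFR and AGBL1 lay at starts. PTAFR (chr1:28193828-28194124) was at 55.2% and 48.1% (32 of 58 and 37 of 77 reads). AGBL1 (chr15:86079465-86079666), a carboxypeptidase that trims tubulin, held 28 of 56 and 35 of 72 methylated reads, or 49.3% ± 0.982. All 5 CpGs of AGBL1 lay within 100 bp of the summit, each between 31.0% and 66.8% as the mean of the replicates. Its peak held no CpG farther out, so centre and edges could not be compared as at TREX1. Within 250 bp of its start, 13 CpGs were 63.9% and 58.5% methylated, in 83 and 94 reads.

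At 3′ ends, EPHX1, a microsomal epoxide hydrolase, was at 49.3% and 47.5% (chr1:225845636-225846172), WBP2 at 55.4% and 48.8% (chr17:75845038-75845592) and DAG1, dystroglycan, at 51.3% ± 1.80 (31 of 59 and 31 of 62 reads; chr3:49535263-49535480). In EPHX1 the 1 CpG near the summit held 4 of 16 and 3 of 33 methylated reads, and the other 8 CpGs were at 55.9% and 66.7%. WBP2 had 45.2% and 33.75% near the summit and 61.4% and 62.5% elsewhere. DAG1 has 5 of its 6 CpGs near the summit, at 53.4% and 49.2%.

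No site over 80% in both replicates had 50 reads in each. The 4 that passed with fewer were SYT12 (strand unknown; 20 of 23 and 64 of 67 reads), C15orf39 (start; 14 of 17 and 31 of 36), TCAF1 (start; 14 of 17 and 19 of 22) and MAP3K3 (3′ end; 26 of 32 and 56 of 65). They were named after their values were seen.

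**Figure D2:**
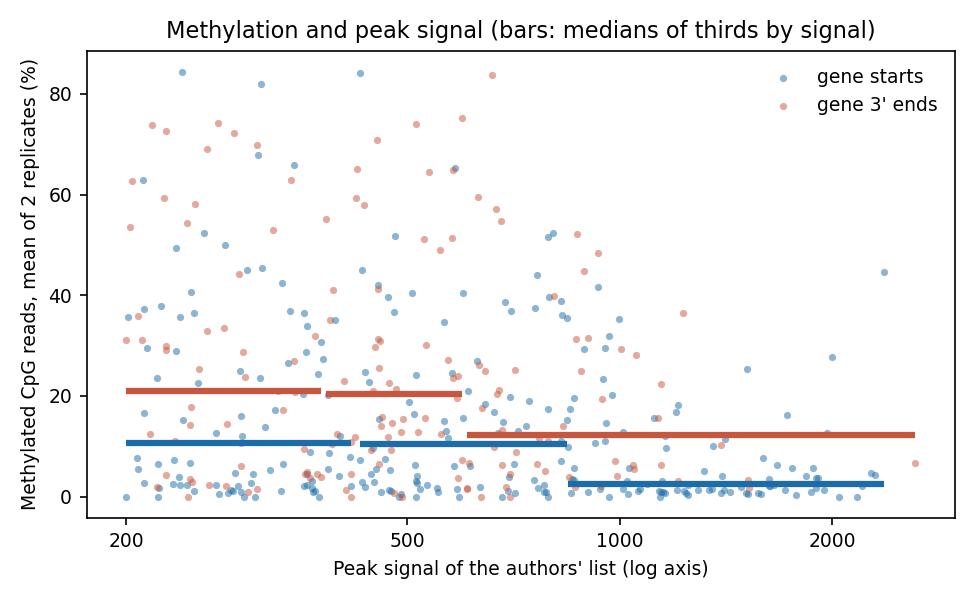
Each point is a CpG-poor site, with its peak signal in the authors' list on a logarithmic x axis and the mean methylation of the 2 replicates in percent on the y axis. Bars mark the medians of 3 equal groups of the sites by signal: 10.6%, 10.4% and 2.59% at gene starts, and 21.03%, 20.3% and 12.2% at 3′ ends.

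Methylation was lower in stronger peaks, at starts mainly in the strongest. With the starts in 3 equal groups by signal, the median was 10.6% ± 0.786 in the lowest group, 10.4% ± 0.437 in the middle one and 2.59% ± 0.603 in the highest, where 72 of 85 starts were under 20% in both replicates. At 3′ ends the groups had 21.03% ± 1.46, 20.3% ± 0.997 and 12.2% ± 0.148. Spearman's rho of methylation with signal was −0.220 ± 0.0299 over 254 starts, −0.164 over 154 3′ ends and −0.310 over 18930 CpG-poor distal peaks. The points of a replicate share a library and stronger peaks hold more reads, 151 and 160 in the median start of the highest group against 34 and 41 in the lowest. By CpG density, the densest group of starts, from 2.34 CpGs per 100 bp, had a median of 3.20% ± 0.0362 and the sparsest 9.0% ± 1.41. At 3′ ends the groups by density had 15.8%, 22.2% and 14.9%, in no single direction.

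Around the summits of gene starts, methylation was 8.47% ± 0.119 within 100 bp and 22.6% ± 6.56 at 1000 to 2000 bp, reads summed over all sites. The rise of 14.1 ± 6.45 points was 9.56 in replicate 1 and 18.7 in replicate 2. It was 3.68 points to a flank of 500 to 1000 bp and 30.1 points when CpGs within any peak were left out of the flank. At 3′ ends methylation was 18.8% ± 0.0949 within 100 bp of the summit, 53.2% ± 5.75 at 200 to 300 bp and 32.8% ± 8.41 at 1000 to 2000 bp. Outside peaks it was 38.6% ± 6.08 at 1000 to 2000 bp from start summits and 60.5% ± 5.44 from 3′ end summits. The dip at 3′ ends was thus narrow, and the dip at starts sat in a wider zone of lower methylation.

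That zone lay on the gene's side of the start. In 200 bp steps along the gene, methylation was 61.6% ± 7.31 at 1200 to 1400 bp before the start, 16.9% at 200 to 400 bp before it and 7.72% ± 0.528 in the last 200 bp. Past the start it remained low, at 8.13% ± 1.74 at 800 to 1000 bp and 17.0% ± 6.53 at 1200 to 1400 bp. Part of these reads lay in other peaks: with every peak left out, the level was 27.9% ± 0.401 at 800 to 1000 bp past the start and 62.2% ± 5.29 at the same distance before it. The difference between the sides was thus present outside peaks too, at higher levels. CpGs were also denser there, with 2.87 per 100 bp in the first 200 bp past the start, 2.57 at 800 to 1000 bp past it and 1.27 at 800 to 1000 bp before it. At CpG-dense starts the dip was more even, with 31.4% ± 8.74 at 1200 to 1400 bp before and 17.7% ± 6.39 at the same distance past the start. Replicate 2 was higher than replicate 1 in every step of these profiles, and the part of this shift in their shape was not tested.

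**Figure D3:**
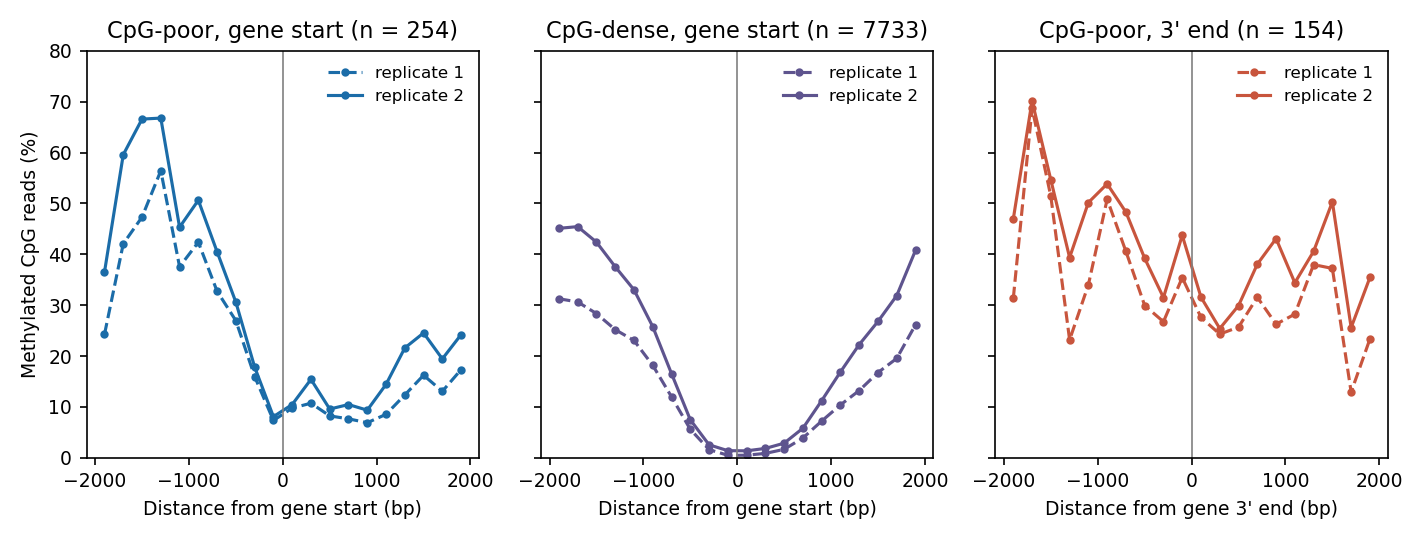
Methylated share of CpG reads, in percent, in steps of 200 bp along the direction of transcription; 0 marks the gene start or 3′ end, and dashed and solid lines are replicates 1 and 2. CpG-poor starts go from 61.6% at 1200 to 1400 bp before the start to 7.72% just before it and stay low past it, CpG-dense starts dip on both sides, and 3′ ends show a shallow, ragged dip.

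CpG-poor starts without a peak, called closed here, were far more methylated than open ones. Of 4107 gene starts with fewer than 3 CpGs per 100 bp within 250 bp, 365 (8.89%) had a peak, against 75.2% of 10904 CpG-dense starts. The 338 open ones with enough reads had a median of 9.35% ± 0.217 within 250 bp, and the 569 measured closed ones 65.0% ± 1.01. The difference of −55.6 ± 1.23 points far exceeded the spread between replicates. Over 80% in both replicates were 4 of the 338 open and 111 of the 569 closed starts. Only 15.2% of the closed starts had 10 reads in each replicate, and at 30 reads the difference was −17.6 points. The other closed starts, of 3742 in all, were not measured. The histogram of the 2 sets shows open starts gathered near 0 and closed starts spread over the whole range.

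**Figure D4:**
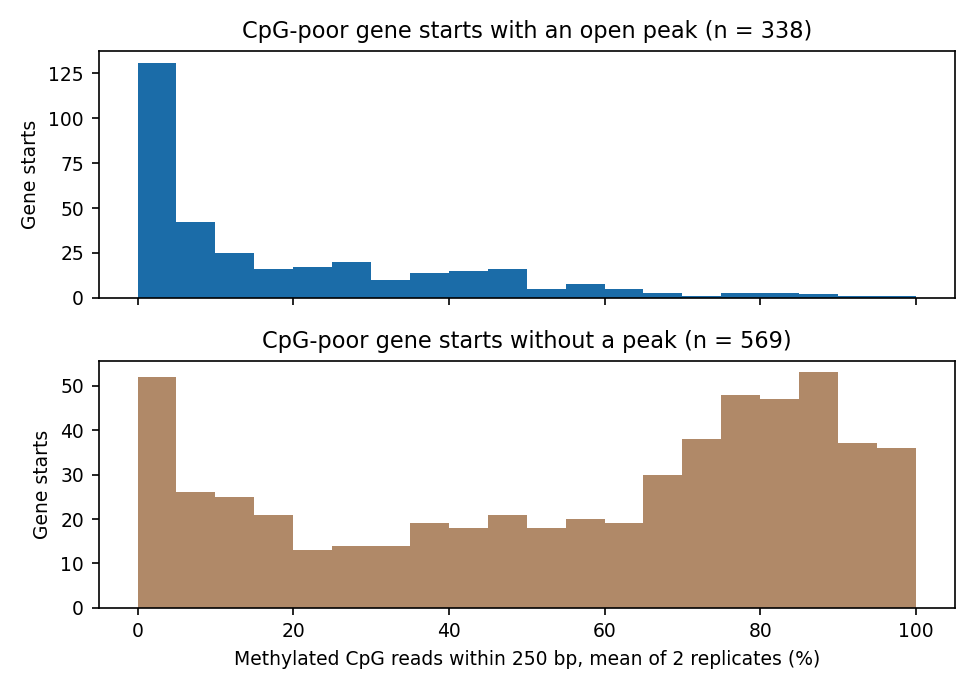
Number of CpG-poor gene starts (y axis) by methylation within 250 bp, mean of 2 replicates in percent (x axis, steps of 5 points), with a peak (top) and without (bottom). The median is 9.35% with a peak and 65.0% without, and 111 of the 569 closed starts were over 80% in both replicates.

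In CpG count and in G and C content, the promoters of the open CpG-poor starts lay between those of closed CpG-poor and of CpG-dense open starts. Promoter sequences, here 300 bases of which 50 follow the start, were matched for 208 of these starts. They held a median of 6 CpGs and 54.0% G and C, against 3 and 46.3% in 2932 closed CpG-poor promoters, 28 and 66.3% in 7544 CpG-dense open ones, and 22 and 62.7% in all 13061. The closed set was limited to promoters with fewer than 3 CpGs per 100 bases, which 172 of the 208 also were. Of the 7544 dense open promoters, 0 had so few. For the 208 the limit had been set on the peak. An intermediate CpG count was thus largely fixed by how the sets were chosen. GGGCGG was found on either strand in 29.3% of the open CpG-poor promoters, 9.99% of the closed ones, 76.9% of the dense open ones and 58.9% of all. CCGGAAG, the ETS site, was in 5.77%, 1.30%, 22.1% and 14.7% in the same order. TGAGTCA was in 8.17%, 7.88%, 2.12% and 3.64%, and CATTGT in 13.9%, 16.4%, 5.21% and 8.02%. GGAATG was in 19.2%, 16.4%, 9.45% and 11.5%. For these last 3, open and closed CpG-poor promoters were close and both above dense ones. CCAAT was in 39.9%, 38.8%, 39.3% and 36.8%, near the same share in each.

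The TATA box was more frequent at closed than at open CpG-poor starts. TATAAA on either strand was in 13.0% of open CpG-poor promoters, 25.4% of closed ones, 4.61% of dense open ones and 10.2% of all. With its first base 40 to 21 bases before the start, on the strand of the gene, it was in 3.85%, 9.82%, 1.71% and 3.99%; this window was chosen after the data were examined. CACGTG, the E-box, was in 5.29%, 3.001%, 10.8% and 8.78%, the octamer ATGCAAAT in 2.40%, 2.73%, 1.30% and 1.74%, and TGACGTCA, the CRE bound by CREB factors, in 1.92%, 0.409%, 4.04% and 2.76%. The GC box, the ETS site, the CRE and the E-box hold a CpG, so their shares also follow CpG content. TATAAA holds only A and T, so its shares also follow base content, and closed CpG-poor promoters had 46.3% G and C against 54.0% in open ones. The part of this in the TATA box difference was not tested. Its positioned match was found in 8 of 208 open CpG-poor promoters.

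Among the 209 start sites with a matched promoter, of which a pair shares a promoter, the 12 sites with CCGGAAG had medians of 1.40% and 2.49%, against 8% and 7.2% in the other 197, a difference of −5.65 ± 1.33 points. The 17 with TGAGTCA had 21.2% and 11.4%, against 6.45% and 6.04% in the other 192, or 10.1 ± 6.63 points. The 30 with CATTGT differed from the rest by 3.28 ± 0.0870 points and the 61 with GGGCGG by −1.44 ± 0.6002, also beyond the replicate spread. For TATAAA the difference was 0.156 ± 0.397 points, for CCAAT −1.99 ± 2.25 and for GGAATG −1.26 ± 1.97, all within the replicate spread. The sets with CCGGAAG and TGAGTCA are small, and 7 motifs were compared in this way. The replicate spread covers 2 libraries of the same sites and does not measure the spread between sites. The quartiles of all 254 starts were 1.62% and 23.2%, so these differences cannot be told from variation between sites.

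Of all 19126 autosomal protein-coding genes, 2.85% had a CpG-poor site at an end. Among 37 pluripotency genes 4 did (10.8%), and all 4 sites were nearly or fully unmethylated. NANOG held 0 of 25 and 0 of 27 reads (chr12:7789254-7789421), CRIPTO 0 of 27 and 0 of 35 (chr3:46574351-46574636) and ZSCAN10 0 of 39 and 0 of 55 (chr16:3099218-3099655). A count of 0 allows up to 5.77%, 4.84% and 3.19% over both replicates of these peaks. USP44, a deubiquitinase, held 0 of 151 and 2 of 196 (chr12:95551299-95551704; strand unknown).

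Epithelial genes had such a site at 4 of 20. CLDN7, a tight junction claudin, held 0 of 31 and 1 of 89 methylated reads at its start, and KRT8, a keratin of simple epithelia, 1 of 35 and 0 of 30. CLDN4 was at 3.77% and 6.40% at its 3′ end, and SFN, the 14-3-3 protein of keratinocytes, at 31.7% and 26.8% at its start. Blood and immune genes had one at 3 of 34, all at starts and all partly methylated. CD74, the invariant chain of MHC class II, was at 34.7% and 38.9% (51 of 147 and 63 of 162 reads). CD52 was at 42.9% and 38.5% (6 of 14 and 10 of 26), and CD68, of macrophage lysosomes, at 51.3% and 39.5%.

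Of 30 contractile genes, CNN1, calponin of smooth muscle, held 0 of 37 and 3 of 131 methylated reads, and MB, myoglobin, 0 of 18 and 0 of 21. Among 31 liver genes the only site was at APOE, an apolipoprotein, with 0 of 61 and 3 of 172. Of 29 cytokine genes, 4 had a site: CCL2 with 0 of 42 and 0 of 42, CSF1 at 13.6% and 11.1%, IL18 at 63.0% and 42.9%, and CXCL14 at 24.1% and 20.9% at its 3′ end. ID1, an inhibitor of basic helix-loop-helix factors, held 0 of 34 and 0 of 36 at its 3′ end, the only site among 24 stress and metabolic genes.

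No site lay at the 28 germline, 15 MHC class I, 76 cytosolic ribosomal protein, 56 cytochrome P450, 17 type I interferon, 45 defensin or 33 serpin genes. At the 2.85% share of all genes, lists of these sizes would hold few sites or none. Peaks of any kind lay at 2 of 28 germline, 2 of 15 MHC class I, 12 of 56 cytochrome P450 and 5 of 33 serpin genes. Of all genes, 56.2% had one. Ribosomal protein genes had a peak of some kind at 69 of 76, none of them CpG-poor by the rule used here, while interferon and defensin genes had a peak at 0 of 17 and 0 of 45. Larger families held 19 sites at 372 solute carrier genes (5.11%), 13 of them under 20% in both replicates, 10 at 505 ZNF genes (1.98%), 4 at 226 TMEM genes, 2 at 391 olfactory receptors, 2 at 42 chemokine ligands and 1 each at 149 keratins, 71 histones and 53 clustered protocadherins.

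The replicates were close for most sites, but no closer than over all tested peaks. Both values lay within 10 points of each other at 428 of 530, with a median distance of 3.84 points. Over all tested peaks this held at 34173 of 40703, with a median of 1.83 points. Among CpG-poor distal peaks it held at 13307 of 18930, with a median of 5.56 points. Fisher's exact test, two-sided and Benjamini-Hochberg adjusted over all tested peaks, called 6 of the 530 sites (1.13%) at an adjusted p of 0.05, against 7.89% of all tested peaks. CpG-dense gene ends, which hold far more reads, were called at 19.6%, and CpG-poor distal peaks at 1.90%. At an unadjusted p under 0.05, 45 sites passed. The 6 were TPP1, a lysosomal peptidase, SPATA12, TEK, an angiopoietin receptor, SRARP and SMIM24 at starts and HAS1, hyaluronan synthase, at its 3′ end.

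Of the 6, TPP1 alone had 50 reads in each replicate: it held 0 of 412 and 11 of 396 methylated reads (adjusted p = 0.00967, Fisher's exact test). TEK was at 9.68% and 51.7% (6 of 62 and 15 of 29 reads), SRARP at 62.9% and 22.0%, SMIM24 at 81.25% and 54.5%, SPATA12 at 21.2% and 1.75%, and HAS1 at 30.4% and 4.05%. They went in both directions. Of the 530 sites, 2 were called and higher in replicate 2, against 2925 of 40703 tested peaks (7.19%). Called and higher in replicate 1 were 4 of the 530, against 285 of all tested peaks (0.7%), which is about the same share. ZNF474 (5 of 68 and 16 of 61; adjusted p = 0.0528, Fisher's exact test) and SLFN12 (3 of 230 and 14 of 234; adjusted p = 0.0989, Fisher's exact test) did not pass. When peaks were limited to those with 50 reads in each replicate and adjusted anew, the called sites were TPP1 (adjusted p = 0.00642, Fisher's exact test) and ZNF474 (adjusted p = 0.0359, Fisher's exact test). No site was called with the best covered CpG of each peak alone, where 6 of all tested peaks were, or with a logistic fit that allows for the shift between libraries and for overdispersion, where 28 of all tested peaks were.

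**Figure D5:**
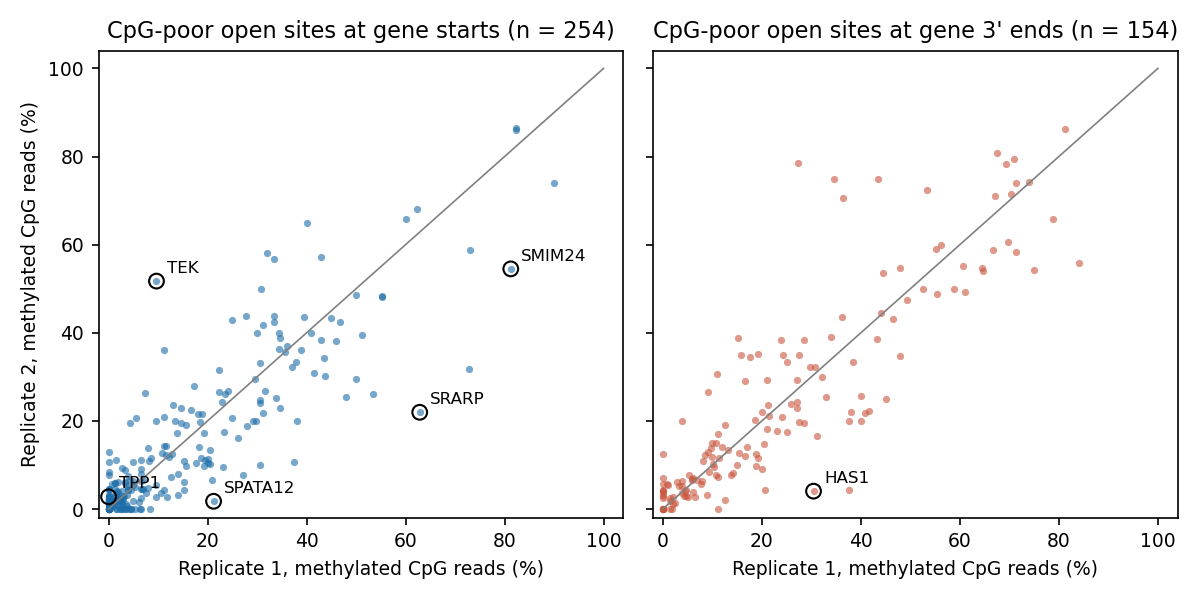
Methylation in replicate 1 (x axis) against replicate 2 (y axis), in percent, one point per CpG-poor site at gene starts (left) and 3′ ends (right), with the line of equal values. Circles mark the 6 sites called by Fisher's exact test. Within 10 points lie 428 of all 530 sites, against 34173 of 40703 tested peaks.

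Values next to the limits of the rule were under 10% on both sides. Just inside the density limit were AGPAT4 (2.98 CpGs per 100 bp, 1.10% methylated) and ADAMTS6 (2.97, 0.645%), and just outside CSRNP1 (3 CpGs, 8.11%) and RARG (3.01, 2.67%). Just inside the distance limit were THNSL1 (492 bp, 2.22%) and WIPF2 (492 bp, 2.08%), and just outside NUAK2 (505 bp, 1.42%) and SIM2 (513 bp, 1.85%).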

How the data were processed

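The 2 H9 libraries were used. For each, the authors deposited for every CpG a methylation fraction (methylated reads over covering reads) and a read count, and for the group 1 peak list with a capped score, the signal of each peak and the −log10 of q. Genrich and Trim Galore, with hg38 (GRCh38), are named per the submitters' processing notes. Not given in the sources used here: the mapper, the methylation caller and how replicates were combined.

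Methylated reads are fraction times reads, whole within 0.001. A read over several CpGs counts at each, so Wilson intervals are too narrow and Fisher p-values too small; both cover counting error only. Strand came from the RefSeq promoter table (GRCh38.p14), for 15101 of 19126 genes. Python 3.11.15, numpy 2.4.6, pandas 2.3.3, scipy 1.17.1 and matplotlib 3.10.9 were used, and the test was checked on simulated data.

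Members and lists were chosen with earlier results of these data known. Named among sites with at least 50 reads were, by class, the 5 of highest signal, the 3 starts with fewest CpGs, sites at 40% to 60% and the 3 smallest adjusted p. Sites in short gene lists were named from 10 reads. Also named were peaks nearest the limits and, outside the rule and after their values were seen, the 4 sites over 80% and the called sites with fewer reads. Printed promoters were picked among these after their values were seen. Alternatives covered reads, significance, distance, density and each replicate left out. CTCF, YY1 and NRF1 motifs were searched but are not reported. Motifs at 3′ ends were not analysed here, for want of a genome sequence.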

Additional observations from a re-analysis of the deposited data

How the results depend on the processing

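No difference changed its sign under any alternative tried, but most sizes moved. The median of the CpG-poor sites was 8.96% with at least 30 and 7.03% with at least 50 reads, 9.91% above the median significance, 10.97% and 11.2% with summits within 250 and 1000 bp, 13.8% and 7.24% with fewer than 2 and 4 CpGs per 100 bp, and 8.35% within 100 bp of the summit. In the same settings, starts minus 3′ ends came to −9.86, −9.40, −12.5, −7.89 and −13.0 points, −10.6 near the summit and −9.42 within 5 groups by signal. Sites minus CpG-dense ends came to 8.11 and 6.17 by reads, 9.08 by significance, 12.9 and 6.39 by density and 7.59 near the summit. Starts minus distal peaks came to −7.42 and −5.17 by reads, −5.02 by significance, −7.69 and −12.1 by density and −8.40 within 5 groups by signal. The share under 20% was 65.5%, 73.2% and 65.02% with 30 reads, 50 reads and above the median significance. The rise around starts was 3.68 points to 500 to 1000 bp and 30.1 points outside peaks. Open minus closed CpG-poor starts came to −64.6 points within 500 bp, −17.6 with 30 reads and −40.5 with fewer than 2 CpGs per 100 bp. Sites called between replicates were 2 with 50 reads (TPP1 and ZNF474), 3 with fewer than 2 CpGs per 100 bp, and 0 with the best CpG or with shift and overdispersion. Leaving out each replicate gave 11.06% to 11.1% for the median, −12.3 to −11.5 for starts minus 3′ ends, 9.75 to 10.7 for sites minus dense ends, −11.3 to −9.32 for starts minus distal peaks, 62.3% to 63.6% for the share, 9.56 to 18.7 for the rise and −56.5 to −54.8 for open minus closed starts. With a replicate left out, the share asks for under 20% in the remaining one only, so it could not fall below the main share. No paired analysis was possible because there is 1 group. The cause of these shifts was not tested. At 10 reads each read is worth 10 points, and 231 of 530 sites had 50 reads in each replicate.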
